A study of Homo sapiens with 12 samples.

Results

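Toll-like receptors are membrane proteins that recognise parts of microbes, and CD180 is their relative. The genes described here were the listed receptor symbols TLR1, TLR2, TLR3, TLR4, TLR5, TLR6, TLR7, TLR9 and TLR10 together with CD180, as annotated on the array. They make up 10 of the 14884 genes tested, and each was read by 1 transcript cluster (the set of probes assigned to a gene). They were picked with their differences between JQ1 and vehicle in each line already known. Those differences, and the difference between the lines in them, are therefore given as a description with no test. The comparisons between the lines use the same arrays, so the values in vehicle and under JQ1 are also a description. The lines were tested once, on the average of their JQ1 and vehicle groups, a contrast chosen after seeing the data whose sampling error is uncorrelated with that of both JQ1 contrasts where arrays vary alike. For CD180 and TLR1 this average is also a description, for the reason given with it.

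The study used 12 Human Gene 2.0 ST arrays, 3 for each of 4 groups. The groups were HCC70 with JQ1 at 500 nM, HCC70 with vehicle (0.1% DMSO), MDA-MB-231 with JQ1 at 500 nM and MDA-MB-231 with vehicle (0.1% DMSO), all kept for 72 hours. Both are established human triple-negative breast cancer lines, HCC70 epithelial and basal, MDA-MB-231 mesenchymal, and each is 1 line standing for its kind. JQ1 blocks the bromodomains of the BET proteins, which bind acetylated histones and promote transcription. Nothing in the labels states whether replicate arrays derive from separate cultures, so a p-value covers the spread among these arrays, which may be technical, and their number limits the precision. Values are log2 signals, differences are on the log2 scale with the standard error (SE) of the limma coefficient, and means carry the standard deviation (SD) of 3 arrays.

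Each Toll-like receptor has a leucine-rich ectodomain that meets the ligand and an intracellular TIR domain that recruits the adaptors MYD88 or TICAM1 (TRIF), from which kinases lead to NF-kB and interferon regulatory factors. Receptors for lipids and proteins sit on the cell surface, and those for nucleic acids sit in endosomes. CD180 has the ectodomain but lacks the TIR domain, pairs with LY86 (MD-1) and is best known from B cells. Epithelial cells use several of these receptors, among them TLR3 for viral RNA and TLR5 for flagellin.

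Within groups the arrays' correlation was 0.989 to 0.995, and array medians lay between 6.16 and 6.26. The arrays numbered 3 of HCC70 JQ1, MDA-MB-231 JQ1 and MDA-MB-231 vehicle had the largest root mean square deviations from their group means over the genes (0.161, 0.168 and 0.166). The next were close, with 0.159 for MDA-MB-231 JQ1 replicate 1 and 0.156 for HCC70 JQ1 replicate 1. Values without the 3 arrays with the largest deviations are given where they matter. The line markers matched the labels: the epithelial gene EPCAM averaged 10.57 in HCC70 JQ1, 10.31 in HCC70 vehicle, 5.67 in MDA-MB-231 JQ1 and 7.41 in MDA-MB-231 vehicle, and the mesenchymal receptor gene AXL 5.87, 5.70, 12.58 and 12.55 in the same order. The BET readouts were called in both lines: BRD2 was higher under JQ1 by 1.22 in HCC70 and 0.86 in MDA-MB-231, HEXIM1 by 1.11 and 0.59, and MYC differed by -0.92 and -0.41. A level was marked near background where a group mean was below the lower quartile of the genes in that group, which was 4.80 in HCC70 JQ1, 4.81 in HCC70 vehicle, 4.82 in MDA-MB-231 JQ1 and 4.78 in MDA-MB-231 vehicle. A difference that ends at a marked level is read as a lower bound, and one with both ends marked is given as a value only. The mark is a set share of genes and not a measured floor, so a level just above it may be background too.

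By that mark TLR2, TLR5 and TLR9 were above background in all 4 groups, and TLR7 and TLR10 near background in all 4. CD180 and TLR1 were above it only in HCC70 vehicle among the groups measured. TLR3 and TLR6 were near background only in MDA-MB-231 JQ1, and TLR4 was near background in both HCC70 groups. In all, 18 of the 40 group means of these genes were marked.

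**Figure D1:**
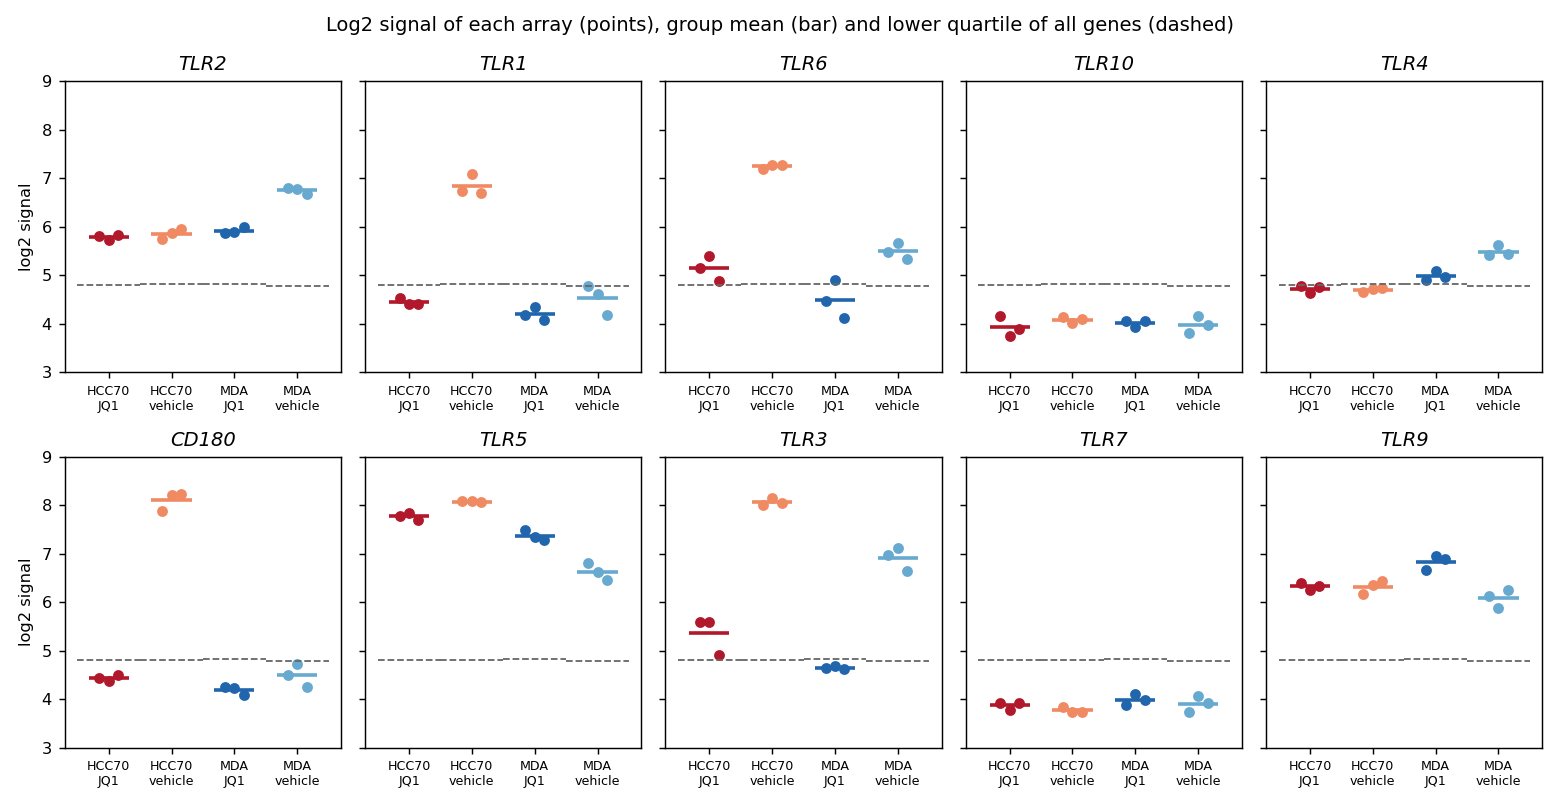
Log2 signal of each receptor gene on each array, in the order HCC70 JQ1, HCC70 vehicle, MDA-MB-231 JQ1 and MDA-MB-231 vehicle, with points for the 3 arrays of a group, a bar for their mean and the near-background level of the group. CD180 sits near 8.11 in HCC70 vehicle and between 4.19 and 4.50 on average in the other groups.

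In HCC70, 5 of the 10 genes were called lower under JQ1 at an adjusted p threshold of 0.05 (CD180, TLR3, TLR1, TLR6 and TLR5), against 12.5% of all genes, and 0 were called higher, against 9.18%. Of these, 4 were lower by at least 1, against 1.96% of all genes. In MDA-MB-231, 4 were called lower (TLR3, TLR6, TLR2 and TLR4), against 17.0% of all genes, and 2 higher (TLR9 and TLR5), against 10.8%. The genes were chosen on these contrasts, so nothing is read from the counts. With array medians centred, the calls over all genes were 1505 lower and 1925 higher in HCC70 (1863 lower and 1366 higher as deposited) and 2091 lower and 2185 higher in MDA-MB-231 (2532 lower and 1607 higher as deposited). Each line's contrast uses its own vehicle arrays. Fewer cells that make a transcript and less of it per cell cannot be told apart in these bulk samples.

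**Figure D2:**
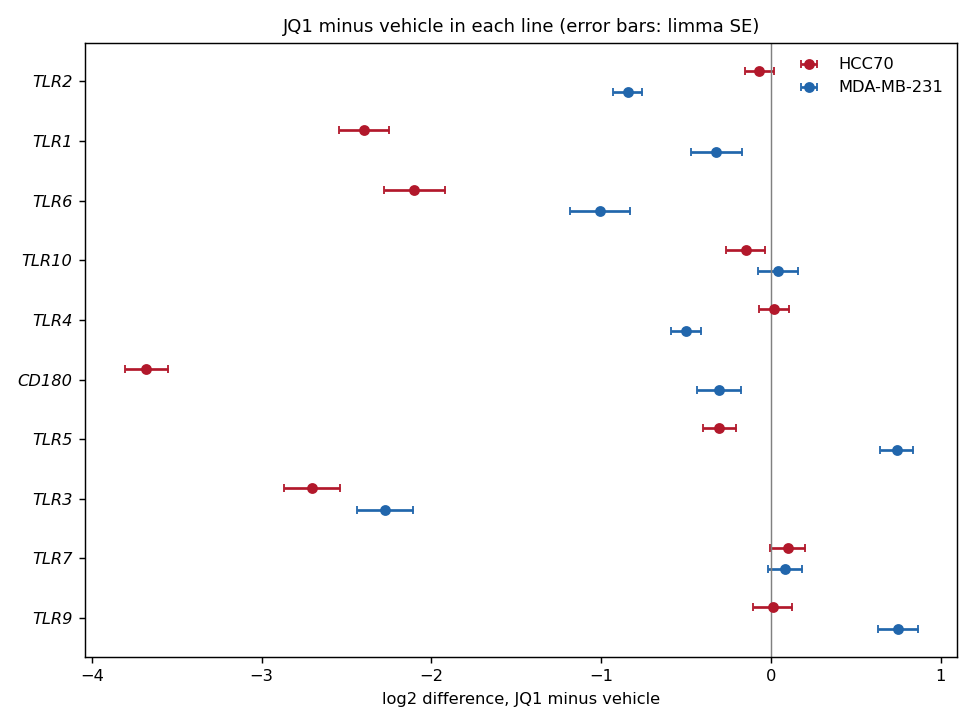
Difference in log2 signal, JQ1 minus vehicle, of each receptor gene in HCC70 and in MDA-MB-231, with bars for the SE of the limma coefficient. Ends near background are not marked in the figure and are given in the text. CD180 and TLR1 lie far below 0 in HCC70 alone of the 2 lines, TLR3 lies below -2 in both, and TLR5 lies on opposite sides of 0.

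Of the lipopeptide receptors on the cell surface, TLR2 is the shared partner of the heterodimers. TLR2 had 5.80, 5.73 and 5.83 in HCC70 JQ1 and 5.74, 5.87 and 5.95 in HCC70 vehicle, a difference of -0.07 ± 0.084. The groups of HCC70 overlapped. In MDA-MB-231, TLR2 had 5.86, 5.88 and 5.98 under JQ1 and 6.80, 6.78 and 6.67 in vehicle, a difference of -0.84 ± 0.084, or 1.79-fold lower. All 3 MDA-MB-231 JQ1 arrays lay below all 3 vehicle arrays and close to the HCC70 values.

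TLR1 joins TLR2 to bind triacylated lipopeptides. TLR1 had 4.53, 4.40 and 4.40 in HCC70 JQ1 and 6.74, 7.08 and 6.70 in HCC70 vehicle, a difference of -2.40 ± 0.15. It ended near background under JQ1, so the transcript was at least 5.27-fold lower. In MDA-MB-231, TLR1 had 4.18, 4.34 and 4.07 under JQ1 and 4.77, 4.60 and 4.18 in vehicle, near background in both groups, with arrays that overlapped. The highest level stood alone in HCC70 vehicle, and the ranges of HCC70 JQ1 and MDA-MB-231 vehicle overlapped.

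TLR6 joins TLR2 to bind diacylated lipopeptides. TLR6 had 5.15, 5.39 and 4.88 in HCC70 JQ1 and 7.18, 7.27 and 7.27 in HCC70 vehicle, a difference of -2.10 ± 0.18, or 4.29-fold lower. Its HCC70 JQ1 mean, 5.14, was close above the mark of 4.80, so the 4.29-fold may also be a lower bound. In MDA-MB-231, TLR6 had 4.46, 4.90 and 4.10 under JQ1 and 5.48, 5.67 and 5.33 in vehicle, a difference of -1.01 ± 0.18. That difference ended near background, so TLR6 was at least 2.01-fold lower. The JQ1 arrays lay below the vehicle arrays in both lines, and those of JQ1 were the more scattered (SD 0.25 against 0.052 in HCC70, and 0.40 against 0.17 in MDA-MB-231).

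TLR10 is the remaining member of the TLR1 branch, with a debated, partly inhibitory role. Its arrays ranged from 3.74 to 4.17 in HCC70 JQ1, 4.01 to 4.13 in HCC70 vehicle, 3.94 to 4.05 in MDA-MB-231 JQ1 and 3.80 to 4.15 in MDA-MB-231 vehicle. All 4 groups were near background and overlapped. TLR1, TLR6 and TLR10 are close paralogs on chromosome 4, and binding of 1 paralog's RNA to the probes of another was not tested.

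TLR4 recognises bacterial lipopolysaccharide together with LY96 (MD-2) and CD14. It had 4.76, 4.62 and 4.76 in HCC70 JQ1 and 4.65, 4.71 and 4.74 in HCC70 vehicle, near background in both. In MDA-MB-231, TLR4 had 4.90, 5.09 and 4.96 under JQ1 and 5.40, 5.61 and 5.44 in vehicle, a difference of -0.50 ± 0.088, or 1.42-fold lower. The MDA-MB-231 groups did not overlap. LY96 was near background in all 4 groups (group means 2.50 to 3.04).

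CD180 had the largest difference of the 10 genes, in HCC70. It had 4.43, 4.38 and 4.49 in HCC70 JQ1 and 7.89, 8.21 and 8.24 in HCC70 vehicle, a difference of -3.68 ± 0.13. The JQ1 arrays were near background, so CD180 was at least 12.8-fold lower. In MDA-MB-231 it had 4.26, 4.23 and 4.08 under JQ1 and 4.50, 4.73 and 4.25 in vehicle, near background in both groups. HCC70 vehicle was thus the single group with CD180 above the mark. LY86, the partner that carries CD180 to the cell surface, averaged 4.91 in HCC70 JQ1, 4.78 in HCC70 vehicle, 4.97 in MDA-MB-231 JQ1 and 4.70 in MDA-MB-231 vehicle, close to the mark throughout.

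CD180 is best known from B cells, so blood cell markers were set beside it. B cell markers were measured for 2 of 6 listed genes, of which 0 were called in either JQ1 contrast. Their summed level was 8.66 to 9.62 in HCC70 JQ1, 9.20 to 9.42 in HCC70 vehicle, 9.24 to 9.58 in MDA-MB-231 JQ1 and 8.73 to 9.34 in MDA-MB-231 vehicle, and CR2 was near background in every group. PAX5, the other one, was above the mark in every group, with means of 5.64 in HCC70 JQ1, 5.75 in HCC70 vehicle, 5.82 in MDA-MB-231 JQ1 and 5.51 in MDA-MB-231 vehicle. Of monocyte and macrophage markers 5 of 7 were measured, with LYZ and CD163 near background in every group. Their summed level was 31.09 to 32.17 in HCC70 JQ1, 30.72 to 31.21 in HCC70 vehicle, 29.66 to 29.89 in MDA-MB-231 JQ1 and 29.47 to 30.29 in MDA-MB-231 vehicle. CD14 was called lower and CD68 higher under JQ1 in HCC70, and CSF1R lower in MDA-MB-231. Of dendritic cell markers 2 of 5 and of T cell markers 1 of 3 were measured, with 0 called in either line. The part of such markers in the receptor values was not tested. PTPRC (CD45), the marker listed for all blood cells, was not among the genes measured.

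TLR5, the receptor for bacterial flagellin, was above background in every group and differed in opposite directions. It had 7.77, 7.84 and 7.69 in HCC70 JQ1 and 8.08, 8.08 and 8.06 in HCC70 vehicle, a difference of -0.31 ± 0.097, or 1.24-fold lower. In MDA-MB-231, TLR5 had 7.49, 7.34 and 7.28 under JQ1 and 6.80, 6.63 and 6.46 in vehicle, a difference of 0.74 ± 0.097, or 1.67-fold higher. The JQ1 and vehicle arrays did not overlap in either line. The HCC70 call was lost on leaving out any 1 array of that line and with array medians centred. It was also lost without the 3 arrays with the largest deviations (difference -0.27). The highest group was HCC70 vehicle, followed by HCC70 JQ1, MDA-MB-231 JQ1 and MDA-MB-231 vehicle, and no neighbouring groups in that order overlapped.

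TLR3, the endosomal receptor for double-stranded RNA, signals through TICAM1 alone. It was lower under JQ1 in both lines. TLR3 had 5.59, 5.59 and 4.92 in HCC70 JQ1 and 8.01, 8.15 and 8.04 in HCC70 vehicle, a difference of -2.70 ± 0.17, or 6.50-fold lower. Its HCC70 JQ1 mean, 5.37, was above the mark but below that of the B cell marker PAX5 (5.64). The 6.50-fold may thus also be a lower bound. In MDA-MB-231, TLR3 had 4.64, 4.68 and 4.62 under JQ1 and 6.97, 7.13 and 6.65 in vehicle, a difference of -2.27 ± 0.17 that ended near background. TLR3 was thus at least 4.84-fold lower there. The JQ1 and vehicle arrays were more than 1 log2 unit apart in each line. The lowest HCC70 JQ1 array was replicate 3, 1 of the 3 arrays with the largest deviations (difference -2.48 in HCC70 without the 3 arrays).

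The promoters of TLR3, CD180 and TLR6 are shown because these genes had the largest differences among those with a RefSeq promoter entry (GRCh38.p14, 7 of the 10 genes). Each runs 5′ to 3′ on the gene's strand, from 250 bases before the annotated start, over 280 bases. TLR3 lies at chr4:186068906-186069185 on the + strand, CD180 at chr5:67196770-67197049 on the - strand and TLR6 at chr4:38856788-38857067 on the - strand. Capitals mark matches to the motifs searched.
TLR3: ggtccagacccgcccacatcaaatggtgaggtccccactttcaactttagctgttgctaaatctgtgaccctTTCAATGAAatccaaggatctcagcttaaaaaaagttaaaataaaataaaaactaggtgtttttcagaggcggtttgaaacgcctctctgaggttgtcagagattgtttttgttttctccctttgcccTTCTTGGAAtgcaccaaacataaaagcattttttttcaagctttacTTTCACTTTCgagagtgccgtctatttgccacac
CD180: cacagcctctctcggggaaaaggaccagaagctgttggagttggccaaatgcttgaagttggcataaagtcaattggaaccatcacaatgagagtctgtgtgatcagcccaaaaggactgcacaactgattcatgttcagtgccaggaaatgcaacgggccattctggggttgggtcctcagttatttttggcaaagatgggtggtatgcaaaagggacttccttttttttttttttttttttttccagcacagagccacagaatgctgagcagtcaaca
TLR6: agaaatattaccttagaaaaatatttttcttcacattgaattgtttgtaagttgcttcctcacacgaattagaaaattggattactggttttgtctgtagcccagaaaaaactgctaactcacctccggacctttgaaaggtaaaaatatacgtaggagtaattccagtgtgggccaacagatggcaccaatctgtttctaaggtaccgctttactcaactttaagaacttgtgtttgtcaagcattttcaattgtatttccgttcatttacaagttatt

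The motifs were the interferon-stimulated response element core (GAAA, any 2 bases, GAAA), the gamma-activated site (TTC, any 3 bases, GAA) and the NF-kB site (GGGA, any base, TTTCC), on both strands of 300 bases around the start. They occur in 3.57%, 7.66% and 0.558% of 35116 promoter windows. TLR3 held the response element core on the other strand, as TTTCACTTTC at position -4 from the start, and gamma-activated sites TTCAATGAA at -178 and TTCTTGGAA at -50. The windows of the other 6 genes held 0 matches. None of the matches overlapped. A match is a run of letters, and no binding was measured here.

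TLR7 senses single-stranded RNA and TLR9 unmethylated CpG DNA, both in endosomes and both through MYD88. TLR7 was near background in all 4 groups, with arrays between 3.73 and 4.11 over the 12. TLR9 had 6.40, 6.25 and 6.34 in HCC70 JQ1 and 6.17, 6.35 and 6.45 in HCC70 vehicle, a difference of 0.01 ± 0.12 with overlapping arrays. In MDA-MB-231, TLR9 had 6.66, 6.95 and 6.89 under JQ1 and 6.13, 5.89 and 6.24 in vehicle, a difference of 0.75 ± 0.12, or 1.68-fold higher. With TLR5 it made up the pair of receptors called higher in that line.

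The JQ1 effects of the lines were set against each other as HCC70 minus MDA-MB-231. Of the 10 genes, 7 were called, against 15.0% of all genes, and the choice of genes used both contrasts. The effect in HCC70 was the lower one for CD180 (-3.37 ± 0.18), TLR1 (-2.08 ± 0.21), TLR6 (-1.10 ± 0.25), TLR5 (-1.05 ± 0.14) and TLR9 (-0.74 ± 0.17). It was the higher one for TLR2 (0.78 ± 0.12) and TLR4 (0.52 ± 0.13). The TLR4 call was lost without the 3 arrays with the largest deviations and with trend and robust moderation. For TLR3 the difference was -0.43 ± 0.24 and was not called, and it was -0.09 without those arrays. Levels near background limit these differences: in both lines for CD180 and TLR1, in HCC70 for TLR4, and in MDA-MB-231 for TLR6 and TLR3. They are therefore values as measured, not sizes of a difference in effect, for those 5 genes.

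Whether the lines carried different receptor levels was asked first between the vehicle groups, as a description. HCC70 vehicle was called higher than MDA-MB-231 vehicle for CD180, TLR1, TLR6, TLR5 and TLR3, and lower for TLR2 and TLR4. Thus 5 of the 10 genes were higher, against 23.8% of all genes, and 2 lower, against 23.2%. These arrays also serve as the vehicle groups of the JQ1 contrasts, on which the genes were chosen, so nothing is read from the counts. Line and anything else that differed between the cultures cannot be told apart.

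In vehicle CD180 averaged 8.11 ± 0.19 in HCC70 and 4.50 ± 0.24 in MDA-MB-231 (SD, n = 3 each), at least 12.2-fold higher (difference 3.62 ± 0.13). TLR1 averaged 6.84 ± 0.21 in HCC70 and 4.52 ± 0.30 in MDA-MB-231, at least 4.99-fold higher. TLR6 averaged 7.24 ± 0.052 in HCC70 and 5.49 ± 0.17 in MDA-MB-231, 3.36-fold higher. The array values of the lines did not overlap for any of these 3 genes. TLR5 averaged 8.07 ± 0.011 in HCC70 and 6.63 ± 0.17 in MDA-MB-231, 2.72-fold higher. TLR3 averaged 8.07 ± 0.071 in HCC70 and 6.92 ± 0.24 in MDA-MB-231, 2.22-fold higher.

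The opposite order held for TLR2 and TLR4. TLR2 averaged 5.85 ± 0.11 in HCC70 vehicle and 6.75 ± 0.072 in MDA-MB-231 vehicle, 1.86-fold lower in HCC70. TLR4 averaged 4.70 ± 0.043 in HCC70 vehicle and 5.48 ± 0.11 in MDA-MB-231 vehicle, at least 1.72-fold lower in HCC70. TLR9 (0.23 ± 0.12), TLR7 (-0.13) and TLR10 (0.11) were not called.

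**Figure D3:**
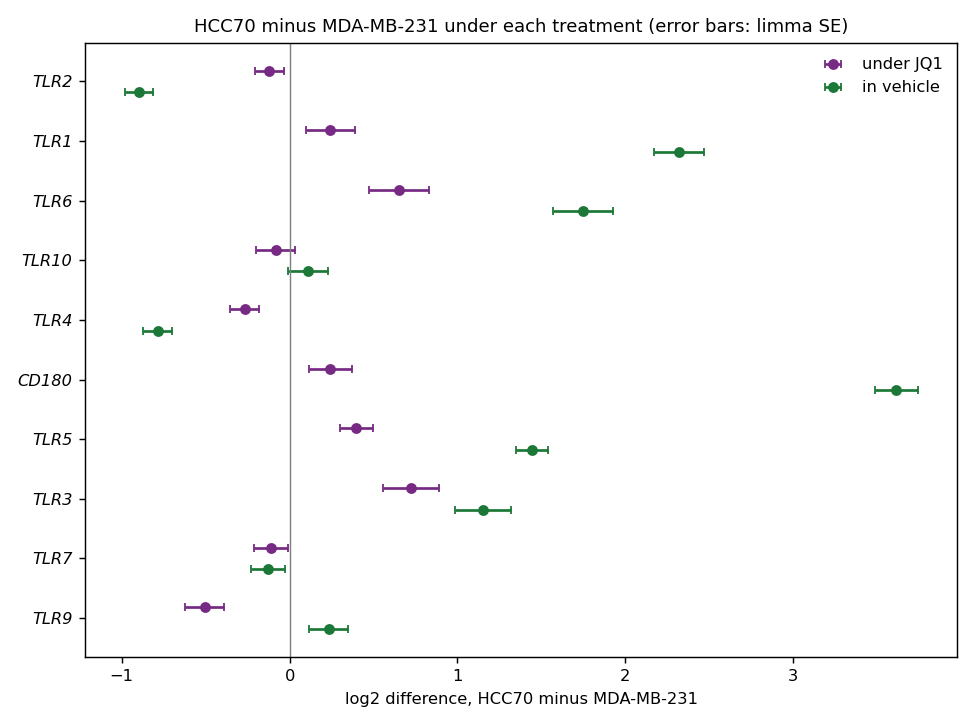
Difference in log2 signal, HCC70 minus MDA-MB-231, of each receptor gene under JQ1 and in vehicle, with bars for the SE of the limma coefficient. In vehicle CD180 stands at 3.62 and TLR1 at 2.32, and under JQ1 both stand at 0.24.

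The same comparison was made between the JQ1 groups, whose arrays also enter the JQ1 contrasts. The difference between HCC70 JQ1 and MDA-MB-231 JQ1 was 0.72 ± 0.17 for TLR3, 0.65 ± 0.18 for TLR6 (with overlapping arrays) and 0.40 ± 0.097 for TLR5. These 3 genes were called higher in HCC70, against 24.5% of all genes. The difference was -0.51 ± 0.12 for TLR9 and -0.27 ± 0.088 for TLR4, so 2 were called lower, against 21.8%. The TLR4 call was lost in 5 of the alternatives. CD180 (0.24 ± 0.13), TLR1 (0.24 ± 0.15) and TLR2 (-0.12 ± 0.084) were not called, and for CD180 and TLR1 both groups were near background.

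On the average of the JQ1 and vehicle groups, 5 of the 10 genes were higher in HCC70 than in MDA-MB-231, against 28.3% of all genes, and 2 were lower, against 26.1%. The difference was 1.93 ± 0.090 for CD180, 1.28 ± 0.10 for TLR1 and 1.20 ± 0.13 for TLR6 (limma adjusted p = 2.4e-06 for TLR6). These 3 genes, and TLR3 and TLR4 below, were near background in at least 1 group, which limits the size of the difference. For CD180 and TLR1 only HCC70 vehicle was above background, and the lines were not called different under JQ1 (0.24 for both). Their averages thus follow the vehicle difference, and are not separate from the JQ1 difference in HCC70 on which these genes were chosen. They are a description, with no p-value given. TLR6 differed by 1.75 in vehicle and by 0.65 under JQ1, with overlapping arrays, so its average also rests more on the vehicle difference. TLR3 differed by 0.94 ± 0.12 (limma adjusted p = 1.2e-05) and TLR5 by 0.92 ± 0.069 (limma adjusted p = 8e-08). TLR4 differed by -0.53 ± 0.063 (limma adjusted p = 7.3e-06) and TLR2 by -0.51 ± 0.059 (limma adjusted p = 6.2e-06). These 7 calls held in every alternative run. TLR9 (-0.14, limma adjusted p = 0.19), TLR7 (-0.12, adjusted p = 0.18) and TLR10 (0.01, adjusted p = 0.90) did not pass.

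The other genes of the pathway were taken from lists by role, of which 71 of 91 genes were measured, and none of them chose the receptors. The lists were drawn up with earlier results of these data known, so their counts beside those of all genes are a description. Among them 16 fell and 6 rose under JQ1 in HCC70 (22.5% and 8.45% of the 71, against 12.5% and 9.18% of all genes), with a median difference of -0.05 against 0.01 over all genes. In MDA-MB-231, 23 fell and 6 rose (32.4% and 8.45%, against 17.0% and 10.8% of all genes), with a median of -0.07 against 0.02. The HCC70 count of 22 was 35 with array weights and 13 without HCC70 vehicle replicate 2. In vehicle, 20 were higher and 23 lower in HCC70 than in MDA-MB-231 (28.2% and 32.4%, against 23.8% and 23.2% of all genes).

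**Figure D4:**
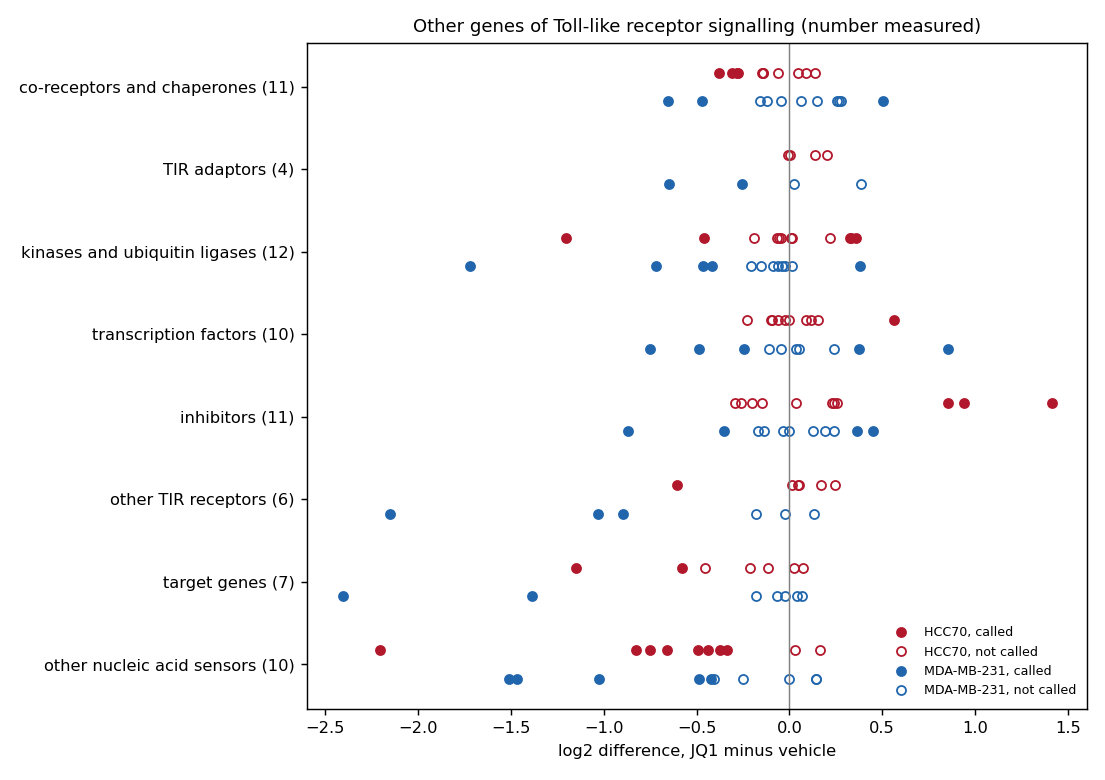
Difference in log2 signal, JQ1 minus vehicle, of the pathway genes measured, by role, in HCC70 and in MDA-MB-231, with called genes marked apart from the others. The list labelled other nucleic acid sensors, which also holds NOD1 and NOD2, has 8 of 10 genes called in HCC70 and 5 in MDA-MB-231, all below 0. Of all genes, 12.5% were called lower in HCC70 and 17.0% in MDA-MB-231.

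Among 11 co-receptors and chaperones, 3 fell in HCC70 (27.3%, against 12.5% of all genes). In MDA-MB-231, 2 fell and 1 rose (18.2% and 9.09%), near the 17.0% and 10.8% of all genes. Counts of the roles below are given with the shares of all genes, and each role holds few genes. The gene that rose was UNC93B1, which carries the endosomal receptors out of the endoplasmic reticulum, by 0.50 in MDA-MB-231 (limma adjusted p = 0.0022), and its difference in HCC70 was 0.05 (adjusted p = 0.84). CNPY3, a folding factor of the receptors, differed by -0.31 in HCC70 (limma adjusted p = 0.021, lost in 4 alternatives) and -0.47 in MDA-MB-231 (adjusted p = 0.0011). LRRC59, which binds UNC93B1, differed by -0.28 in HCC70 (limma adjusted p = 0.04, lost in 8 alternatives) and -0.65 in MDA-MB-231 (adjusted p = 0.00012). CD14, the lipopolysaccharide co-receptor, averaged 8.14 in HCC70 JQ1 and 8.52 in HCC70 vehicle, a difference of -0.38 (limma adjusted p = 0.012, lost in 2 alternatives). In MDA-MB-231 it averaged 5.99 under JQ1 and 5.72 in vehicle.

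Of 4 TIR adaptors measured, 0 passed in HCC70 and 2 fell in MDA-MB-231 (50%, against 17.0% of all genes). MYD88, shared by nearly all the receptors, averaged 7.56 in both HCC70 groups. In MDA-MB-231, MYD88 averaged 6.94 ± 0.12 under JQ1 and 7.60 ± 0.16 in vehicle (difference -0.65, limma adjusted p = 0.00023). TIRAP, the bridge between TLR2 or TLR4 and MYD88, differed by -0.26 in MDA-MB-231 (limma adjusted p = 0.034), a call lost in 12 alternatives, the replicate block among them (adjusted p = 0.063).

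Of 12 kinases and ubiquitin ligases, 2 rose and 2 fell in HCC70 (16.7% each, against 9.18% and 12.5% of all genes). In MDA-MB-231, 1 rose and 4 fell (8.33% and 33.3%, against 10.8% and 17.0%). IRAK1, the kinase downstream of MYD88, averaged 7.68 ± 0.051 in HCC70 JQ1 and 8.89 ± 0.13 in HCC70 vehicle, 2.31-fold lower (limma adjusted p = 1.3e-06). In MDA-MB-231, IRAK1 averaged 6.34 ± 0.080 under JQ1 and 8.06 ± 0.073 in vehicle, 3.29-fold lower (limma adjusted p = 2.9e-08). The JQ1 arrays lay below the vehicle arrays in both lines. TBK1, which activates IRF3 downstream of TLR3, differed by 0.33 in HCC70 (limma adjusted p = 0.027, lost in 4 alternatives) and by -0.46 in MDA-MB-231 (adjusted p = 0.003). TRAF3, an adaptor of TBK1, differed by -0.46 in HCC70 (limma adjusted p = 0.012, and 0.054 without HCC70 JQ1 replicate 3) and by -0.72 in MDA-MB-231 (adjusted p = 0.00048). The other genes named by the rule were TAB3 in HCC70 (0.36, limma adjusted p = 0.028, lost in 7 alternatives, with 0.059 under the replicate block) and MAP3K8 in MDA-MB-231 (0.38, adjusted p = 0.041, lost in 6).

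Of 10 transcription factors, 1 rose in HCC70 (10%, near the 9.18% of all genes). In MDA-MB-231, 2 rose and 3 fell (20% and 30%, against 10.8% and 17.0%). IRF7, which drives type I interferon downstream of TLR7 and TLR9, rose in both lines, by 0.56 in HCC70 (limma adjusted p = 0.001) and 0.85 in MDA-MB-231 (adjusted p = 2.7e-05). The NF-kB subunit genes differed in both directions in MDA-MB-231. NFKB1 differed by -0.75 (limma adjusted p = 8.3e-05), REL by 0.38 (adjusted p = 0.0092) and RELA by -0.25 (adjusted p = 0.032, and 0.051 with the replicate block). IRF1 differed by -0.49 in MDA-MB-231 (limma adjusted p = 0.0014).

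Of 11 inhibitors of the pathway, 3 rose and 0 fell in HCC70 (median difference 0.23 against 0.01 over all genes). The rises were 27.3%, against 9.18% of all genes, where 12.5% of all genes fell. In MDA-MB-231, 2 rose and 2 fell (18.2% each, against 10.8% and 17.0%). The HCC70 rises numbered 5 with array weights or with array medians centred. Falls in HCC70 numbered 2 with array weights. They numbered 1 with trend and robust moderation, the filter on dim genes or quantile normalization, and without MDA-MB-231 vehicle replicate 3 or HCC70 JQ1 replicate 2. SOCS1, a suppressor of cytokine signalling, averaged 6.995 ± 0.20 in HCC70 JQ1 and 5.58 ± 0.25 in HCC70 vehicle (difference 1.41, limma adjusted p = 1.6e-05). The stress-induced repressor ATF3 rose by 0.94 (limma adjusted p = 0.00018) and the phosphatase gene DUSP1 by 0.86 (adjusted p = 0.00012) in HCC70. In MDA-MB-231, DUSP1 rose by 0.45 (limma adjusted p = 0.008) and TOLLIP by 0.36 (adjusted p = 0.018, lost in 5 alternatives). TNIP1 fell by 0.35 in MDA-MB-231 (limma adjusted p = 0.0088), and IRAK3 differed by -0.87 with both groups near background (adjusted p = 0.0041).

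The other TIR receptors, of the interleukin-1 family, had 1 of 6 fall in HCC70 and 3 of 6 in MDA-MB-231. These were 16.7% and 50%, against 12.5% and 17.0% of all genes. IL1RL2, the interleukin-36 receptor, differed by -0.61 in HCC70 (limma adjusted p = 0.0023) and by at least 0.90 downward in MDA-MB-231 (adjusted p = 8.6e-05). IL1RAP, the shared accessory chain, fell by 1.03 in MDA-MB-231 (limma adjusted p = 2.2e-06), and IL1RAPL1, a relative best known from neurons, by 2.15 (adjusted p = 8.1e-08). Of 7 target genes measured, 2 fell in each line (28.6%, against 12.5% of all genes in HCC70 and 17.0% in MDA-MB-231). The chemokine gene CCL5 averaged 6.52 ± 0.16 in HCC70 JQ1 and 7.67 ± 0.046 in HCC70 vehicle, 2.22-fold lower (limma adjusted p = 1.6e-05). The adhesion molecule gene ICAM1 fell by 0.58 in HCC70 (limma adjusted p = 0.0055) and by 2.41 in MDA-MB-231 (adjusted p = 3.7e-08). CXCL8, the neutrophil chemokine interleukin-8, ended near background in MDA-MB-231 (3.55 under JQ1 and 4.94 in vehicle, limma adjusted p = 3.1e-07).

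The list of nucleic acid sensors outside the Toll-like family, which also holds NOD1 and NOD2, had 8 of 10 fall in HCC70 (median difference -0.47 against 0.01 over all genes). In MDA-MB-231, 5 of 10 fell (median -0.41 against 0.02), and 0 rose in either line. Of all genes, 12.5% fell in HCC70 and 17.0% in MDA-MB-231. NOD1 and NOD2 sense bacterial peptidoglycan, not nucleic acid. Both were among the 8 in HCC70, near the threshold (-0.44, limma adjusted p = 0.05, and -0.37, adjusted p = 0.045), and neither was called in MDA-MB-231. IFIH1 (MDA5), a cytosolic sensor of double-stranded RNA like TLR3, averaged 6.42 ± 0.28 in HCC70 JQ1 and 7.25 ± 0.14 in HCC70 vehicle (difference -0.83, limma adjusted p = 0.00083). In MDA-MB-231 it averaged 4.40 ± 0.14 under JQ1 and 5.91 ± 0.13 in vehicle, at least 2.85-fold lower (limma adjusted p = 3.9e-06). RIGI, the sensor of RNA ends, did not pass in HCC70 (0.03, limma adjusted p = 0.90) or MDA-MB-231 (0.15, adjusted p = 0.35). The DNA sensor AIM2 was at least 4.60-fold lower in HCC70 (limma adjusted p = 3.7e-06), and near background in both MDA-MB-231 groups (difference -1.03). CGAS, which makes the second messenger for STING1, fell by 0.49 in HCC70 (limma adjusted p = 0.022) and 1.47 in MDA-MB-231 (adjusted p = 5.1e-06). STING1 fell by 0.75 in HCC70 (limma adjusted p = 8.4e-05) and 0.42 in MDA-MB-231 (adjusted p = 0.004), and the RNA-activated kinase gene EIF2AK2 by 0.66 in HCC70 (adjusted p = 0.00028) and 0.49 in MDA-MB-231 (adjusted p = 0.0018). The HCC70 count was 4 without HCC70 vehicle replicate 1 or 2, and 5 without HCC70 vehicle replicate 3, HCC70 JQ1 replicate 2 or 3 or MDA-MB-231 vehicle replicate 2, and with array medians centred.

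The genes whose pattern over the 12 arrays was most like a receptor's were found by Pearson r among 3868 genes whose group means spanned at least 1. The 12 points share 4 groups, so r mostly sets group means side by side. CD180 was closest to IFI44L (r = 0.9931), an interferon-induced gene, then to TLR1 (0.9914) and TNC (0.9866), which encodes tenascin-C. TLR1 was closest to CD180, then to TNC (0.9857) and CAB39L (0.9848). TLR6 was closest to COG7 (0.9837), MT1F (0.9756) and GRAMD1C (0.9736), and TLR3 to XBP1 (0.9866), SMAGP (0.9844) and RHOU (0.9842). TLR5 was closest to TSPAN15 (0.9684), PREPL (0.9646) and PRUNE1 (0.9636).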

How the data were processed

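Expression was measured in 12 samples. The deposited values are log2 signals per transcript cluster, and the submitters' processing notes name RMA, oligo and limma; versions and the genome build are not given in the sources used here. Of 53617 clusters, 16098 had 1 gene symbol, and the cluster with the highest mean was kept for the 779 genes with several, which left 14884 genes. Other columns of per-sample values numbered 0. limma 3.58.1 (R 4.3.3, statmod 1.5.0) estimated the 4 group means from the 12 arrays together, with two-sided tests and Benjamini-Hochberg adjustment over all genes at 0.05. The procedure was tested on simulated data.

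The receptors, pathway lists, markers and naming rule were chosen with earlier results of these data known. The rule named all 10 receptors, pathway genes with a called difference of at least 1 and otherwise up to 3 genes per list and direction by smallest p, and the 3 genes most like a receptor.

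The replicate numbers in the labels were checked as pairs by the correlation of deviations from group means. Same-numbered arrays gave r = 0.155, 0.121 and 0.362 in MDA-MB-231 and -0.0588, 0.0147 and 0.0702 in HCC70. Arrays with different numbers gave -0.25 to 0.121 in MDA-MB-231 and -0.142 to 0.135 in HCC70. Same-numbered arrays may thus be paired in MDA-MB-231, most clearly for replicate 3. For replicate 2 the value of 0.121 was matched by arrays with different numbers. In HCC70 these correlations do not show pairing and cannot exclude it, and the labels do not state it. The main fit used no pairing, and the replicate block was run as an alternative. Alternatives were the replicate block, each line alone, trend with robust moderation, other filters, clusters and normalizations, array weights, and leaving out arrays. The contrast on the average of the lines was added after seeing the data.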

Additional observations from a re-analysis of the deposited data

Results flagged for a closer look

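The JQ1 effects of the lines were called different for 7 of the receptors and 19 of the pathway genes named, as the effect in HCC70 minus that in MDA-MB-231 on the log2 scale. Over all genes 15.0% were called, and over the 71 pathway genes 20 (28.2%). The genes named were picked for a called JQ1 difference in a line, which favours a difference between the lines. Groups of 3 arrays were not tested for outlying arrays. For the receptors the values are a description: CD180 -3.37, TLR1 -2.08, TLR6 -1.10, TLR5 -1.05, TLR9 -0.74, TLR2 0.78 and TLR4 0.52.

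The pathway genes were tested as an interaction with limma and Benjamini-Hochberg adjustment. Among co-receptors, CD14 had -0.65 (adjusted p = 0.0062) and UNC93B1 -0.46 (adjusted p = 0.049). The adaptors MYD88 and TIRAP had 0.66 (adjusted p = 0.0058) and 0.46 (adjusted p = 0.018). Among kinases and their partners, TBK1 had 0.80 (adjusted p = 0.0018), IRAK1 0.51 (adjusted p = 0.015) and TAB3 0.51 (adjusted p = 0.037). The factors NFKB1 and IRF1 had 0.52 (adjusted p = 0.023) and 0.46 (adjusted p = 0.029), and the inhibitors SOCS1 and ATF3 1.29 (adjusted p = 0.00085) and 0.94 (adjusted p = 0.0035).

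IL1RAPL1 had 2.17 (adjusted p = 6.4e-06, near background in both HCC70 groups) and IL1RAP 1.28 (adjusted p = 2.3e-05). Of the target genes, ICAM1 had 1.83 (adjusted p = 2.4e-05), CXCL8 1.18 (adjusted p = 8.1e-05, near background in 3 of 4 groups) and CCL5 -0.97 (adjusted p = 0.0014). Of the other nucleic acid sensors, AIM2 had -1.18 (adjusted p = 0.009, near background in 3 of 4 groups), CGAS 0.97 (adjusted p = 0.0048) and IFIH1 0.69 (adjusted p = 0.033, near background in MDA-MB-231 JQ1).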

How the results depend on the processing

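Of 60 receptor results, 52 kept their side of the threshold under every alternative run. Of the 37 called, 0 changed sign, and 8 of the others did. These are contrasts of the same 4 group means per gene, so they are not separate results. Apart from the average of the lines they are a description. The tally shows how far values depend on the processing, and it is no support for differences the genes were chosen on. Besides the TLR5 and TLR4 calls noted above, TLR1 and CD180 in MDA-MB-231, TLR10 in HCC70, TLR9 between the vehicle groups and TLR7 on the average of the lines (adjusted p = 0.043) each gained a call in 1 alternative. Pathway genes called in HCC70 numbered 35 with array weights in place of 22, and 13 to 18 on leaving out 1 array in turn. Over the same omissions, receptors called numbered 6 to 8 for JQ1 in MDA-MB-231, 4 for JQ1 in HCC70, 7 for the difference of the effects, 7 between the vehicle groups, 4 to 5 between the JQ1 groups and 7 on the average of the lines. With the replicate block, 3236 genes were called in HCC70 in place of 3229 and 4210 in MDA-MB-231 in place of 4139, and, among the receptors and the pathway genes in the contrast that named them, the block ended the calls of TIRAP and RELA in MDA-MB-231 and of LRRC59 and TAB3 in HCC70. With a higher background mark, the lower tertile of genes, 20 of 40 receptor levels were marked in place of 18. The added levels were TLR6 in HCC70 JQ1 and TLR4 in MDA-MB-231 JQ1. Under that mark the JQ1 differences of TLR6 in HCC70 and TLR4 in MDA-MB-231 would also be lower bounds. A mark from olfactory receptor genes was not run, because only 1 such gene was measured. The causes of these shifts were not tested.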

Other observations

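The genes next to the receptors in RefSeq order (GRCh38.p14) were looked at after the receptor values were seen. TLR10, TLR1 and TLR6 form a run of 3 genes on chromosome 4, next to KLF3, which did not pass under JQ1 in HCC70 (-0.14, limma adjusted p = 0.36) or MDA-MB-231 (-0.04, adjusted p = 0.78). On the other side TMEM156, the nearest gene measured, fell in HCC70 by at least 1.40 (limma adjusted p = 1.4e-05), and was near background in both MDA-MB-231 groups. SORBS2, next to TLR3 on chromosome 4, fell by 1.68 in HCC70 (limma adjusted p = 3.6e-07) and 1.72 in MDA-MB-231 (adjusted p = 1.1e-07), and PDLIM3, the gene beyond it, did not pass in HCC70 (-0.08) or MDA-MB-231 (-0.06). MAST4, next to CD180 on chromosome 5, did not pass in HCC70 (-0.03, limma adjusted p = 0.91) and differed by -0.44 in MDA-MB-231 (adjusted p = 0.0052). SREK1, the gene beyond MAST4, did not pass in HCC70 (0.24, limma adjusted p = 0.07) and differed by -0.50 in MDA-MB-231 (adjusted p = 0.00078). The nearest genes on the other side were not measured for CD180 (PIK3R1 and SLC30A5) or for TLR3 (FAM149A and CYP4V2).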
